A study of Solanum chacoense with 24 samples.

Results

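The 46 gene models described here were read in leaves of the susceptible parent M6 and had 0 counts in the resistant parent 80-1. They were taken from a deposited table of 37740 gene models. They were chosen by their counts in the parents: a model was included when it had at least 1 CPM in each of 3 M6 libraries and no count in any of 3 libraries of 80-1. CPM is a library's count divided by its column sum and multiplied by 1000000. The reverse rule, reads in 80-1 and none in M6, gave 71 models, and 15331 models had at least 1 CPM in all 6 parental libraries. These 15331 are called models read in both parents below.

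The samples are leaves of a wild relative of potato, the diploid Solanum chacoense, from a cross of USDA8380-1 (80-1), which resists the Colorado potato beetle, with the inbred and beetle-susceptible line M6. The F2 generation is represented by the resistant lines EE501F2_089, EE501F2_516 and EE501F2_641 and the susceptible lines EE501F2_093, EE501F2_099 and EE501F2_500, picked for extreme resistance or susceptibility in the field. Each of the 8 lines gave 3 libraries, from 3 in vitro plants of 1 individual that were grown untreated in a growth chamber at 20 °C and sampled 16 weeks after transplanting. Each line is thus 1 genotype by the labels, and spread between its plants says nothing of other genotypes of its class. No gene names accompany the identifiers in the sources used here, so neither the functions of the models nor the leaf identity of the samples could be checked against marker genes.

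In an F2 population, a chromosome segment is inherited in the version of either parent or in both versions at once. A gene whose RNA is made from the version of 1 parent and not from that of the other can therefore be read in some F2 plants and unread in others. RNA reads alone do not tell a gene that is absent from a genome from one that is present and silent, nor from one whose sequence differs so much that reads are not assigned to it.

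The total count per library was 23610756 to 40825791 in 7 lines and 60713423 to 77078776 in EE501F2_093, so a single read counts for less CPM there. In 80-1, 0 counts over the 3 libraries allow a level of up to 0.0349 CPM (3 counts over the summed totals), which covers counting error only. In these models, only EE501F2_641 had cases with 0 counts in 1 plant and at least 1 CPM in another plant of the line. Some results that rest on this line are given per plant as well, and others only as its mean or sum. One library of EE501F2_093, replicate 1, also stood apart: of 11 models with 0 counts in its replicates 2 and 3, 8 had 1 to 22 counts in replicate 1.

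In M6, which the rule used, the 46 models were weakly read. Their mean levels ran from 1.20 to 10.2 CPM with a median of 2.54 CPM, against a median of 20.7 CPM in M6 over the models read in both parents. Only 8 models averaged at least 5 CPM, and 14 averaged less than 2 CPM. Counts per M6 library lay between 29 and 377. Set against the limit of detection in 80-1, the M6 levels were at least 34.2-fold to at least 293-fold higher, a description of how the models were chosen and not a test.

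The rule's thresholds cut through a continuum. Just inside, g38622 had 1.90, 1.01 and 2.87 CPM in the M6 libraries and g13956 had 1.02, 1.19 and 1.37 CPM. Just outside, g17231 had 1.34, 0.982 and 1.17 CPM in M6 and novel_gene_383_57a387f8 had 1.20, 0.955 and 1.43 CPM, both with 0 counts in 80-1. In all, 30 models had 0 counts in 80-1 with an M6 minimum between 0.5 and 1 CPM. On the other side of the rule, 33 models with at least 1 CPM in every M6 library had a single count in 80-1. The highest of these in M6 were g5023, with 29.3, 18.4 and 17.2 CPM, and g281, with 24.4, 17.9 and 16.3 CPM. Both stood above every included model in M6, so the 46 do not contain the most abundant transcripts that were nearly unread in 80-1.

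The F2 libraries were not used by the rule, and the question asked of them was whether the models were read, unread or in between in each line. Taken over all 18 F2 libraries, 211 of 828 values (25.5%) were 0 and 374 (45.2%) were at least 1 CPM. Another 44 values were above 0 and below 0.1 CPM, and 199 lay from 0.1 to 1 CPM. A model is called off in a line when all 3 plants had 0 counts and on when all 3 plants had at least 1 CPM.

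**Figure D1:**
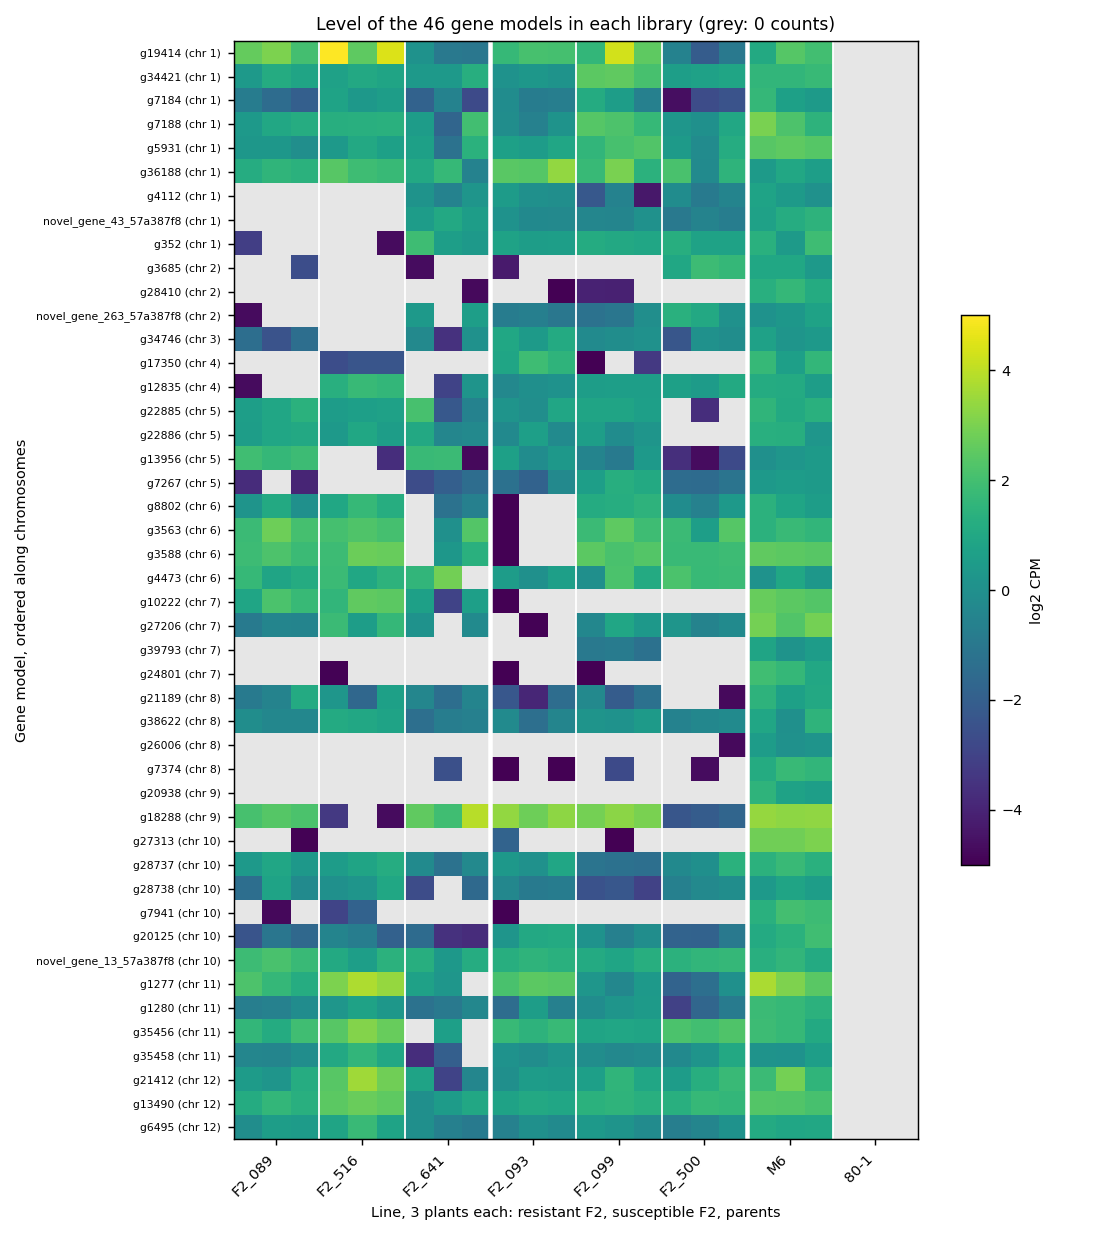
Each row is 1 of the 46 gene models in chromosome order and each column 1 library, with 3 plants per line; colour gives log2 CPM within the limits of the colour bar, and grey marks 0 counts. Grey stretches cover whole lines in the F2, as for g20938 in all 6 lines, and in EE501F2_641 they often cover 1 plant of 3.

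Among the resistant lines, 9 of the 46 models were off in EE501F2_089, 12 in EE501F2_516 and 7 in EE501F2_641. Among the susceptible lines, 3 were off in EE501F2_093, 5 in EE501F2_099 and 9 in EE501F2_500. Off calls were rare elsewhere: of all 16534 models with at least 1 CPM in every M6 library, the 46 included, 0.133% were off in EE501F2_089, 0.139% in EE501F2_516 and 0.0847% in EE501F2_641. The shares were 0.0726% in EE501F2_093, 0.115% in EE501F2_099 and 0.218% in EE501F2_500. The 46 models supplied 9 of 22 off calls in EE501F2_089, 12 of 23 in EE501F2_516 and 7 of 14 in EE501F2_641. They supplied 3 of 12 in EE501F2_093, 5 of 19 in EE501F2_099 and 9 of 36 in EE501F2_500.

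Off calls were also counted in other sets of models. Over lines and models together, 45 of 276 states (16.3%) were off. Among 4561 models read in both parents whose M6 mean was no higher than that of the highest of the 46, 0.0767% of states were off. This set was capped at that level and not matched in level to the 46. In the reverse set of 71 models, 73 of 426 states (17.1%) were off.

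The count of 3 in EE501F2_093 moved with the libraries used. With every library thinned to the total of the smallest one, 10 models were off in EE501F2_093. The count was then 9, 12 and 7 in EE501F2_089, EE501F2_516 and EE501F2_641, and 5 and 10 in EE501F2_099 and EE501F2_500. The thinned counts come from a single random draw and may differ in another. Without replicate 1, 11 models were off in EE501F2_093, and 8 of them had 1 to 22 counts in that replicate. Its replicates 2 and 3 are themselves deeper than any library of another line. A cut at less than 0.1 CPM in all 3 plants, which depends less on depth, held 14 of the 46 models in EE501F2_089, 16 in EE501F2_516 and 9 in EE501F2_641, and 13 in EE501F2_093, 9 in EE501F2_099 and 13 in EE501F2_500. The same cut held 0.369%, 0.393% and 0.224% of the 16534 models in EE501F2_089, EE501F2_516 and EE501F2_641, and 0.339%, 0.236% and 0.411% in EE501F2_093, EE501F2_099 and EE501F2_500.

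On calls ranged from 5 to 26 per line. They numbered 19 in EE501F2_089, 26 in EE501F2_516 and 5 in EE501F2_641, and 15 in EE501F2_093, 18 in EE501F2_099 and 13 in EE501F2_500. Of the 16534 models read in M6, 93.4%, 94% and 90.6% were on in EE501F2_089, EE501F2_516 and EE501F2_641, and 95.6%, 95.7% and 95% in EE501F2_093, EE501F2_099 and EE501F2_500. The low number in EE501F2_641 stood beside larger numbers in its single plants, which had 19, 13 and 15 models at 1 CPM or more. Single plants of EE501F2_089 had 20, 22 and 21, and those of EE501F2_516 had 27, 26 and 27. In the susceptible lines, single plants had 20, 20 and 21 in EE501F2_093, 23, 23 and 26 in EE501F2_099, and 16, 15 and 20 in EE501F2_500.

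**Figure D2:**
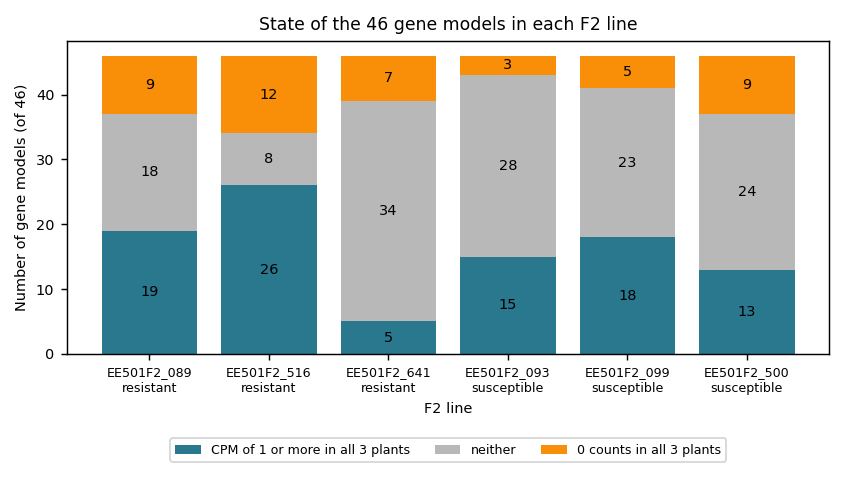
Bars give, for each F2 line, how many of the 46 gene models had at least 1 CPM in all 3 plants, 0 counts in all 3 plants, or neither. EE501F2_516 had the fewest models in neither state (8) and EE501F2_641 the most (34).

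Across the 6 lines, 29 of the 46 models were off in no line, 4 in 1 line, 5 in 2 lines and 5 in 3 lines, while 2 were off in 5 lines and 1 in all 6. Of the 17 models that were off somewhere, 8 were also on in at least 1 other line. The tally over lines turns on single counts. The models g28410 and g24801, each off in 3 lines, reached at most 0.0601 and 0.0326 CPM in any F2 library. With g26006 and g20938 they were under 0.1 CPM in every F2 library. The highest ratio of a line mean to the M6 mean was 0.0128 for g27313, 0.0198 for g7374 and 0.0398 for g7941.

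At one end stands g20938 (chromosome 9, 7179722 to 7180509, plus strand, 3 exons). It had 2.85, 1.70 and 1.52 CPM in M6 and 0 counts in all 18 F2 libraries and in 80-1. It was the only one of the 46 with no read in any F2 plant. The models off in 5 lines were g26006 on chromosome 8, with 1 count in EE501F2_500, and g39793 on chromosome 7, with 53 counts in EE501F2_099. These 2 models were chosen after their values were seen.

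At the other end, only g34421 and novel_gene_13_57a387f8 had at least 1 CPM in all 18 F2 libraries. The model g34421 (chromosome 1, 11359866 to 11361133, minus strand) averaged 1.77 ± 0.477 CPM in EE501F2_089, 1.85 ± 0.210 in EE501F2_516, 1.68 ± 0.615 in EE501F2_641, 1.13 ± 0.0884 in EE501F2_093, 5.22 ± 0.869 in EE501F2_099 and 1.67 ± 0.171 in EE501F2_500 (SD, n = 3 plants). M6 averaged 3.14 ± 0.201 CPM. Every line but EE501F2_099 lay below M6, and every plant of EE501F2_099 lay above it. The model novel_gene_13_57a387f8 (chromosome 10, 26873731 to 26875453, plus strand) was the more even of the pair. Its line means ran from 1.98 ± 0.616 CPM in EE501F2_641 to 3.81 ± 0.525 in EE501F2_089, around 2.55 ± 0.443 in M6 (SD, n = 3). These models had 0 counts in 80-1 and yet were read in all 6 F2 lines.

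The 2 models with the highest level in M6 showed the range of F2 patterns. The model g18288 (chromosome 9, 14175053 to 14181070, minus strand, 7 exons) had 4.24, 5.10 and 4.52 CPM in EE501F2_089, 0.0977, 0 and 0.0384 CPM in EE501F2_516, and 5.95, 3.81 and 15.1 CPM in EE501F2_641. It had 10.4, 6.87 and 9.78 CPM in EE501F2_093, 7.51, 9.60 and 7.99 CPM in EE501F2_099, and 0.200, 0.234 and 0.297 CPM in EE501F2_500. M6 had 10.7, 9.82 and 10.2 CPM. Susceptible EE501F2_093 and EE501F2_099 thus came near M6, EE501F2_089 was lower, EE501F2_641 spread to both sides of M6, and EE501F2_516 and EE501F2_500, one of each class, were nearly unread. The 6 lines differed (edgeR quasi-likelihood F test over 18 F2 libraries, adjusted p = 2.18e-07), while the classes overlapped and did not pass the test over lines (log2 fold change, resistant minus susceptible, -0.27 ± 1.63; adjusted p = 0.999).

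The model g1277 (chromosome 11, 31807083 to 31812429, plus strand, 5 exons) was high in other lines. It had 4.61, 3.12 and 2.29 CPM in EE501F2_089, 8.08, 13.5 and 10.8 CPM in EE501F2_516, and 1.64, 1.19 and 0 CPM in EE501F2_641. It had 4.32, 5.55 and 5.34 CPM in EE501F2_093, 1.20, 0.766 and 1.32 CPM in EE501F2_099, and 0.280, 0.390 and 1.00 CPM in EE501F2_500. M6 itself spread widely, with 13.3, 8.33 and 5.47 CPM. Only EE501F2_516 lay at the M6 level, and the other 5 lines graded down to EE501F2_500 with no plant of 5 lines above the second M6 plant. The lines differed (adjusted p = 0.000633), and the classes did not pass the test (log2 fold change 0.94 ± 1.06; adjusted p = 0.999).

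**Figure D3:**
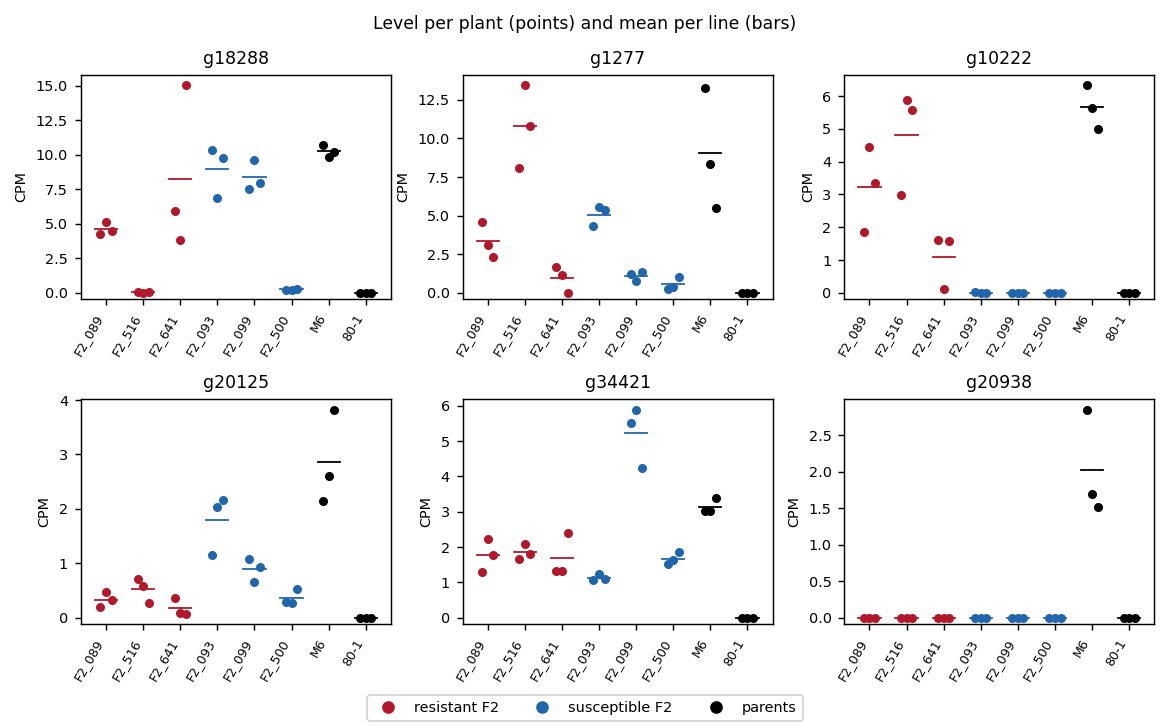
Points give CPM per plant and short bars the line mean for 6 of the gene models, with resistant F2 lines left, susceptible F2 lines next and the parents at the right. For g10222, the resistant plants lie between 0.127 and 5.87 CPM and the susceptible plants at or below 0.0259 CPM; g20938 is at 0 in every F2 plant.

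Over the whole table, expression differed among the 6 F2 lines for most of the models tested. Of the 46, 39 passed the filter on low counts in the F2 and 36 were called (edgeR, adjusted p under 0.05), against 70.8% of all 20601 models tested. The 36 are 92.3% of the 39 tested, and as a share of every model listed they are 78.3% of the 46, against 38.7% of the 37740. Since the filter kept members by their F2 levels, no more is read from these shares. The 7 models that did not enter the test were nearly unread in the F2, g20938 among them. The tested models that were not called were g1280 (adjusted p = 0.0510), g36188 (0.0556) and g4473 (0.597), named here because they are so few.

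Levels in the F2 lines were mostly below those of M6. The median ratio of a line's mean to the M6 mean was 0.355 in EE501F2_089, 0.490 in EE501F2_516 and 0.203 in EE501F2_641, and 0.384 in EE501F2_093, 0.552 in EE501F2_099 and 0.277 in EE501F2_500. Over the models read in both parents the same medians were 0.903, 1.10 and 0.807 in EE501F2_089, EE501F2_516 and EE501F2_641, and 0.861, 1.02 and 1.05 in EE501F2_093, EE501F2_099 and EE501F2_500. Since the rule asked for a minimum in M6, which favours plants that happened to be high, ratios below 1 were to some degree built in. Of all 276 ratios, 81 were below 0.05, 39 from 0.05 to 0.25, 88 from 0.25 to 0.75, 46 from 0.75 to 1.5, and 22 were at or above 1.5.

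Some F2 lines exceeded M6. In 9 of the 276 cases (3.26%) the line mean was at least 2 times the M6 mean, against 6.42% of cases over the models read in both parents, and in 7 of these every plant of the line lay above every plant of M6. The largest ratio was at g19414 on chromosome 1, with 21.7 ± 15.8 CPM in EE501F2_516 and 3.74 ± 1.54 CPM in M6 (SD, n = 3), a ratio of 5.80. The model g36188 exceeded M6 at least 2 times in 3 lines, with 4.15 ± 1.06 CPM in EE501F2_516, 6.95 ± 2.91 in EE501F2_093 and 4.63 ± 2.82 in EE501F2_099, against 1.63 ± 0.321 in M6. For both models the plants of a line spread widely, and neither excess was tested.

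The resistant F2 lines were set against the susceptible ones to see whether any of the 46 follows the trait. With the line as the replicate, 36 of the 46 entered the edgeR test on line sums and none passed in either direction, and 1 had an unadjusted p under 0.05. Of all 21184 models tested, 0.0142% passed as higher and 0% as lower in resistant lines. DESeq2 called 1 of the 35 members to which it gave an adjusted p, g10222, as higher in resistant lines, and called 2.34% of all 22479 models, 1.32% as higher and 1.02% as lower. The median log2 fold change was 0.25 over the 36 models and 0.02 over all models tested. In 3 of the 36 models all resistant lines lay above all susceptible lines, and in 1 they all lay below, against 6.33% and 6.42% of all models tested (TMM-scaled CPM of line sums). The 3 were g10222, g21189 and g22886 and the 1 was g7267, named because they are so few. By mean CPM of the column sum 3 lay above and 2 below, g34746 joining g7267, against 3.48% and 7.45% of all models tested. By that measure g22886 separated the classes only narrowly, with 1.207 CPM in EE501F2_641 and 1.199 CPM in the susceptible EE501F2_099. The plants overlapped, with 2.04, 0.762 and 0.821 CPM in EE501F2_641 and 1.53, 0.913 and 1.15 CPM in EE501F2_099. The model g21189 on chromosome 8 averaged 0.928 ± 0.278 CPM over resistant lines and 0.239 ± 0.238 CPM over susceptible lines, against 2.14 CPM in M6. The model g7267 on chromosome 5 averaged 0.103 ± 0.139 CPM over resistant lines and 0.964 ± 0.899 CPM over susceptible lines, against 1.38 CPM in M6 (SD of line means, n = 3 lines; edgeR adjusted p = 0.778 for g21189 and 0.753 for g7267).

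The model g10222 (chromosome 7, 1821447 to 1822344, minus strand, 2 exons) came nearest to following the classes. It had 1.85, 4.44 and 3.36 CPM in EE501F2_089, 2.998, 5.87 and 5.56 CPM in EE501F2_516, and 1.61, 0.127 and 1.57 CPM in EE501F2_641. In the susceptible lines it had 2 counts in replicate 1 of EE501F2_093 and 0 in the other 8 libraries. M6 had 6.34, 5.65 and 4.99 CPM. Resistant and susceptible plants did not overlap, but replicate 2 of EE501F2_641, with 3 counts, was close to the susceptible plants. The counts summed to 747 over resistant libraries and 2 over susceptible libraries, a ratio of 603 per total count (95% counting interval 166 to 4990). That interval covers counting error only and leaves out the spread between lines and between plants. The edgeR test over lines gave an adjusted p of 0.103, and DESeq2 gave 1.83e-11. The direction is that of M6, the susceptible parent: the resistant F2 lines were read and 80-1 was not. Its neighbours g10221, at a distance of 195 bases, and g10223, at 63 bases, were likewise read in M6 (3.92 and 13.5 CPM) and nearly unread in 80-1 (0.0108 and 0.0368 CPM). Such neighbours were not particular to g10222. Beside g35456, g35455 had 19.7 CPM in M6 and 0.0242 CPM in 80-1. Beside g12835, g12836 had 5.05 and 0.0695 CPM, and beside g28737, g28736 had 3.24 and 0.0123 CPM. Of the 86 different neighbours of all members, 19 were read in both parents.

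The other models with the smallest p in either direction and at least 1 CPM in the higher class did not separate the classes. The model g6495 (chromosome 12, 44705658 to 44705948) averaged 1.44 ± 0.816 CPM over resistant lines and 0.919 ± 0.165 CPM over susceptible lines (SD of line means, n = 3 lines; edgeR adjusted p = 0.909), with 2.01 ± 0.133 CPM in M6. The model g20125 (chromosome 10, 24449601 to 24449950) averaged 0.342 ± 0.177 CPM over resistant lines and 1.01 ± 0.722 CPM over susceptible lines (adjusted p = 0.732), and the susceptible EE501F2_500, at 0.358 CPM, lay below the resistant EE501F2_516, at 0.524 CPM. The model g36188 (chromosome 1, 47429312 to 47429746) averaged 2.92 ± 1.11 CPM over resistant lines and 4.75 ± 2.14 CPM over susceptible lines (adjusted p = 0.896). No model was off in all 3 lines of one class and on in all 3 lines of the other. This pattern had little room to appear. Only 3 models were off in EE501F2_093, and these were off in all 3 resistant lines too, while only 5 were on in EE501F2_641. The model g10222 missed it through 2 counts in replicate 1 of EE501F2_093 and a level of 0.127 CPM in replicate 2 of EE501F2_641. The share over all models read in M6 is not given here.

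The number of off models per line did not separate the classes either. It averaged 9.33 ± 2.52 over resistant lines and 5.67 ± 3.06 over susceptible lines (SD, n = 3 lines each). Permuting the lines exactly gave a two-sided p of 0.3, where 0.1 is the smallest value possible. With thinned libraries, in a single random draw, the means were 9.33 ± 2.52 and 8.33 ± 2.89, with p = 0.7 in the same exact test. With a single plant of EE501F2_641 in place of its 3, that line had 14, 12 and 13 models at 0 for replicates 1, 2 and 3. The other 5 lines still needed 0 counts in all 3 plants, so only EE501F2_641 could rise. Their single plants also had more models at 0, with 12, 15 and 13 in EE501F2_089 and 13, 11 and 11 in EE501F2_500. Under this unlike rule the difference of the class means, resistant minus susceptible, was 6.0, 5.33 and 5.67, against 3.67 with all plants. The p was 0.2 each time in the exact test, and nothing is read from the larger difference. Off in a resistant line and in no susceptible line were 6 models, and off in a susceptible line and in no resistant line 2, against 0.127% and 0.224% of the 16534 models read in M6. With thinned libraries these counts were 6 and 5.

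Among the 46, a split between plants of a line from 0 counts to at least 1 CPM was seen only in EE501F2_641. Smaller differences between plants are left out of this count. In EE501F2_093, for example, 5, 13 and 12 of the models were at 0 in replicates 1, 2 and 3. In this line 8 of the 46 models had 0 counts in 1 plant and at least 1 CPM in another, and none did in any of the other 5 F2 lines. Of the 16534 models read in M6, 0.242% showed such a split in EE501F2_641, 0.0181% in EE501F2_099 and 0% in EE501F2_089, EE501F2_516, EE501F2_093 and EE501F2_500.

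Which plant of EE501F2_641 was unread changed from model to model. Replicate 1 was at 0 for g12835, g3563, g3588 and g35456, replicate 2 for g27206 and novel_gene_263_57a387f8, and replicate 3 for g4473, g1277 and g35456. The counts of g4473 in replicates 1, 2 and 3 were 77, 172 and 0. The models g3563 and g3588 lie 297 kb apart on chromosome 6, had the same state in all 6 lines, and were ordered alike over the plants of EE501F2_641, with 0, 24 and 134 counts for g3563 and 0, 29 and 69 counts for g3588. The model g4473, 17227 kb further along that chromosome, was at 0 in another plant, with 3.02, 7.28 and 0 CPM. These models other than g1277 are named because they make up the 8.

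**Figure D4:**
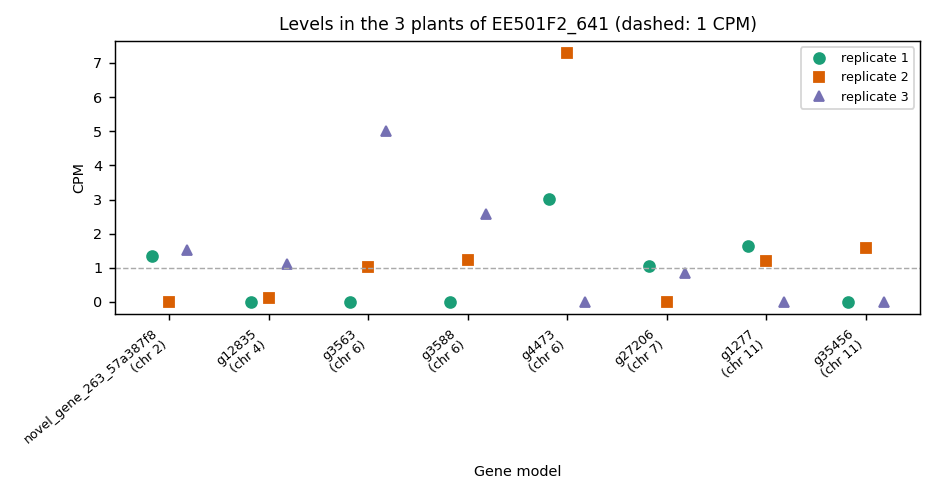
For the 8 gene models with 0 counts in 1 plant and at least 1 CPM in another plant of EE501F2_641, symbols give CPM in its 3 plants. The plant at 0 is replicate 1 in 4 models, replicate 2 in 2 and replicate 3 in 3, with g35456 at 0 in both replicates 1 and 3.

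The models were set among other expression differences around them, to see whether their state went with that of the surrounding segment. For this, 1422 other models were used that differed between the parents by at least 2 on the log2 scale (edgeR adjusted p under 0.05) and had counts in all 6 parental libraries. Each was placed on a scale from 0, the M6 level, to 1, the 80-1 level, and the median was taken over those within 1 Mb of a member, where at least 3 were present. This gave a surrounding state for 36 of the 46 models, in 216 combinations of model and line. Linked models share their segment, so these are not independent points and no test was made.

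Where a model was off, the surrounding state had a median of 0.670 (quartiles 0.491 to 0.800, 37 combinations). Where it was on, the median was 0.307 (0.184 to 0.457, 72 combinations), and for the states between it was 0.551 (107 combinations). The difference of the medians, off minus on, was positive in each of the 6 lines, from 0.194 in EE501F2_500 to 0.541 in EE501F2_516, although EE501F2_093 had only 2 off combinations and EE501F2_641 only 4 on combinations. Over all lines it was 0.363 within 1 Mb, and 0.190 within 2 Mb, where the medians were 0.551 for off and 0.361 for on. Read the other way, the median ratio to M6 was 0.0150 in the 39 combinations with a surrounding state of 0.75 or more, 0.370 in the 119 from 0.25 to 0.75, and 0.625 in the 58 below 0.25. Without EE501F2_641 these medians were 0.00498, 0.405 and 0.637.

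**Figure D5:**
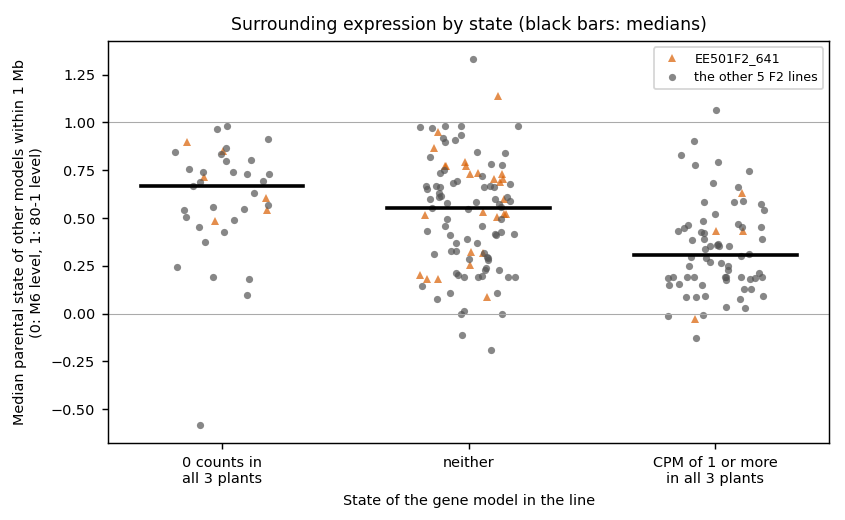
Each point is 1 gene model in 1 F2 line, placed by its state (horizontal) and by the median parental state of other models within 1 Mb (vertical, 0 for the M6 level and 1 for the 80-1 level); triangles are EE501F2_641. Medians, drawn as black bars, are 0.670 for off, 0.551 for neither and 0.307 for on, with wide overlap.

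The exceptions were several. Of the 37 off combinations, 5 had a surrounding state below 0.25, and of the 72 on combinations, 5 had one above 0.75, 4 of them in EE501F2_516. For g20938, unread in all 6 lines, the surrounding state was 0.425 to 0.756. In the plants of EE501F2_641, g3563 went with its surroundings: states of 1.14, 0.820 and 0.342 in replicates 1, 2 and 3 stood beside 0, 24 and 134 counts. For g1277 it did not, since replicate 3, at 0 counts, had the most M6-like surroundings (0.437, against 0.694 and 0.788 in replicates 1 and 2).

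The 46 models lay on all 12 chromosomes. Chromosome 1 held 9, chromosome 10 held 6, and chromosome 3 held 1. Set against the models read in M6 on each chromosome, the share was highest on chromosome 10, at 0.562% of 1067, and lowest on chromosome 3, at 0.0591% of 1691. The reverse set was spread differently, with 15 of its 71 models on chromosome 11 and 10 on chromosome 8, where the 46 had 4 each. With so few models per chromosome these shares are given as a description.

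Models lay mostly apart from each other. Of 34 pairs of successive members on a chromosome, 6 were within 100 kb and 2 were direct neighbours in gene order. In these 6 pairs no line had one model off and the other on, against 13 of 168 line states in the 28 pairs further apart. In the 6 pairs, only novel_gene_43_57a387f8 (EE501F2_089 and EE501F2_516) and g22886 (EE501F2_500) were ever off. Few line states could thus have differed in this way, and nothing is read from the absence. The share of line states that were the same was 50.0% in the 6 pairs and 47.6% in the 28. The direct neighbours were g28737 and g28738 on chromosome 10 (345 bases between them, both on the minus strand) and g22885 and g22886 on chromosome 5 (356 bases between them, both on the plus strand).

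The pair on chromosome 5 had the higher summed level in M6 and was unread or nearly so in the same line. In EE501F2_500, g22885 (5259584 to 5260326) had 0, 2 and 0 counts and g22886 (5260683 to 5261186) had 0 in all 3 plants. In the other 5 lines their means ran from 1.32 to 2.02 CPM for g22885 and from 1.09 to 1.81 CPM for g22886, below 2.53 ± 0.415 and 2.03 ± 0.727 CPM in M6 (SD, n = 3). Replicate 1 of EE501F2_641 was above M6 for g22885 with 4.23 CPM, beside 0.212 and 0.672 CPM in replicates 2 and 3. Whether such close models on a strand are parts of 1 transcript cannot be told from the table.

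As annotated, the 46 models were short. The exons of a model summed to a median of 680 bases (quartiles 437 to 1104). The median was 1720 bases in all models read in both parents. It was 1409 bases in the 4561 of them with an M6 mean no higher than that of the highest of the 46. These 4561, called the weak models here, were capped at that level and not matched to the levels of the 46. A single exon made up 32.6% of the 46, against 17.8% of the weak models and 11.2% of all models read in both. Identifiers that begin with novel_gene, 3 of the 46 (6.52%), made up 0.482% of the weak models and 0.339% of all models read in both. The reverse set was nearly as short, with a median of 822 bases, and 15.5% of it had a single exon. A short model gives fewer reads at a given RNA level, so its level in CPM is lower and a 0 is reached sooner.

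The direct neighbours of the 46 in gene order, other members left out, were 86 different models. Of these, 22.1% were read in both parents, against 51.5% of the 29786 models on chromosomes, and 25.6% had 0 counts in all 24 libraries, against 11.3%. No member overlapped another model in coordinates. The sources used here give neither the strand setting nor the treatment of reads that map to several places, so reads of near-identical copies elsewhere in the genome cannot be told from those of the 46 models.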

How the data were processed

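RNA of 24 leaf libraries (8 lines, 3 plants each) was measured. The authors deposited raw counts per gene model, in columns laid out as featureCounts writes them, per the file headers; 0 count columns were unmatched. Per the submitters' processing notes, DESeq2, STAR 2.6.0, Trimmomatic 0.35, Subread and featureCounts 1.5.3 were used, with no role stated. The genome build is not given in the sources used here, and coordinates are those of the table, counted from 1. The deposited model length in bases is a unit other than counts and entered no test. On the unplaced sequence, 7954 models had 0 counts in every library.

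Members were found with Python 3.11.15. Levels are CPM of the column sum. Tests used edgeR 4.0.16 in R 4.3.3 (filterByExpr, TMM, quasi-likelihood, Benjamini-Hochberg over all models tested, calls at 0.05): an F test over 6 line means on the 18 F2 libraries, and resistant minus susceptible on 6 line sums. Standard errors of log2 fold changes are the estimate divided by the root of F. The surrounding state used log2 CPM with prior count 2 from a fit to all 24 libraries. Scripts were tested on simulated data. DESeq2 1.42.0, other scalings, filters, thresholds, thinning and left-out plants or lines were tried. Named models are those highest in M6, with the smallest p per class direction (at least 1 CPM in the higher class), unread or read in all F2 libraries, opposite between classes (there was none), in the longest run, nearest the thresholds, and highest among split lines. Members and lists were chosen with earlier results of these data known.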

Additional observations from a re-analysis of the deposited data

How the results depend on the processing

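The number of models depended on the rule: 76 at a minimum of 0.5 CPM, 23 at 2 CPM, 5 at 5 CPM, 120 when up to 3 counts were allowed in 80-1, and 66 to 85 without 1 replicate of each parent, with all 46 kept in each of the looser rules. TMM scaling gave 40. At 5 CPM, 4 models differed among F2 lines and 0, 1 and 1 were off in EE501F2_089, EE501F2_516 and EE501F2_641, and 0, 0 and 1 in EE501F2_093, EE501F2_099 and EE501F2_500. Below 0.1 CPM in place of 0 counts, 14 models were off in EE501F2_089, 13 in EE501F2_093 and 9 in EE501F2_099. Thinning gave 10 in EE501F2_093, and leaving out a replicate gave 4 to 11 there; the plants of EE501F2_641 alone had 14, 12 and 13. At 0.5 CPM, 10 models were on in EE501F2_641, 27 in EE501F2_093, 30 in EE501F2_099 and 24 in EE501F2_500.

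The count of 36 that differed among lines was 26 to 32 without a replicate and 38 without EE501F2_641. With the replicate number as a block it was 36. The numbers were not taken as pairs in the main test. The correlation of same-numbered plants of different lines ran from -0.387 to 0.301, and 15 of 45 were over 0.1. Its median was 0.0391 for same-numbered plants and 0.0026 for plants with other numbers. Whether some same-numbered plants were handled together was not tested. The count of 0 between classes was 1 with DESeq2 and 0 in the other alternatives run. For g10222 the edgeR adjusted p ran from 0.0618 to 0.689. The difference in surrounding state, 0.363, was 0.190 within 2 Mb, where the cause was not tested. TMM-scaled on counts stayed within 1.5 times, and column-sum CPM moved the models below in every resistant line to 2, with 1 under TMM; both alternatives were chosen after seeing the data. Depth limits all off calls: 1 count was at most 0.0424 CPM.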
